A study of Mus musculus with 15 samples.

Results

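Cytochrome P450 genes encode haem-containing monooxygenases, and 57 of them were followed in the livers of mice on a diet that produces metabolic dysfunction-associated steatohepatitis (MASH). The members were all gene symbols made of Cyp, a family number, a subfamily letter and a gene number whose estimated counts summed to at least 150 over the 15 libraries, without the bile acid, steroid and ethanol-metabolising genes Cyp7a1, Cyp7b1, Cyp8b1, Cyp27a1, Cyp2c70, Cyp17a1 and Cyp2e1. Among the symbols of 15302 counted genes, 80 had this form, 16 fell below the sum and 7 were those named, which left 57 members of 21 subfamilies. The members nearest above the sum were Cyp21a1 with 177 counts, Cyp1a1 with 185 and Cyp2d12 with 188, and the symbols nearest below it were Cyp2d34 with 128, Cyp2s1 with 124 and Cyp3a41a with 95. One member, Cyp2d37-ps, has the symbol of a pseudogene. The rule used no comparison between groups.

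The 15 livers came from wild-type mice that had been moved at 8 weeks of age to the MASH diet and to housing at about 29°C, housed singly and randomised on body weight and body composition. The Vehicle, GDF15 and PairFed groups had 5 libraries each. The GDF15 mice received recombinant GDF15, a stress-induced hormone that lowers food intake, at 1 nmol/kg under the skin once each morning. The PairFed mice were fed what the GDF15 mice had eaten on the preceding day, so that GDF15 could be compared with a lower food intake alone. All groups shared the diet and the warm housing, so no liver on another diet was compared. The sources used here do not give the make-up of the vehicle, the mouse strain, the sex, the length of treatment or whether PairFed mice were injected.

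P450 enzymes insert an oxygen atom into lipid-soluble compounds with electrons that most of them receive from P450 oxidoreductase (Por). Many members of families 1 to 3 oxidise drugs, other foreign compounds and steroids. Family 4 enzymes oxidise the end carbon of fatty acids and eicosanoids, and higher-numbered families convert sterols, steroids, retinoic acid and vitamin D. Hepatocytes hold most of them, many in the cells near the central vein, and nuclear receptors such as CAR, PXR and PPARα, the aryl hydrocarbon receptor (AHR) and the circadian and growth hormone systems set their transcription.

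What makes these genes one family is the loop that holds the haem iron through a cysteine, and its coding sequence is shown for the members on which the comparisons turned. The 30 bases were found by searching the longest reading frame of each GENCODE vM21 transcript for phenylalanine, glycine, arginine, cysteine and glycine in the spacing of the P450 signature, and capitals mark the cysteine codon. They are written 5′ to 3′ on the coding strand.
Cyp39a1: tttggaggcgggaagttccagTGTcctgga
Cyp2c68: ttctcagcaggaaaacggattTGTgtggga
Cyp3a59: tttggaaatggacccaggaacTGCctagac
Cyp3a25: tttggaaatggacccaggaacTGCataggc
Cyp4a10: ttctcaggaggagccaggaacTGCattggg
Cyp4a14: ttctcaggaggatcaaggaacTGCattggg
Cyp2b10: ttctcaacaggaaagcgcattTGTcttggt
Of 56 coding members searched, 53 held the exact signature, Cyp39a1 and Cyp3a59 held it with 1 mismatch, and Cyp20a1 did not hold these letters. The cysteine was encoded by TGC in 31 members and by TGT in 24. The loops of Cyp4a10 and Cyp4a14 differed at 2 of 30 bases, those of Cyp2b10 and Cyp2c68 at 6, and those of Cyp39a1 and Cyp4a10 at 17.

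Total estimated counts ran from 8551557 to 12994187 per library, and 5 libraries (Vehicle 4 and PairFed 2 to 5) lay above the largest gap in depth, between 10914914 and 12137462. Markers of hepatocytes were high in every library, with 9 of 10 in the count table and a summed level of 87930 to 127900 CPM (each count relative to its library total after edgeR's TMM scaling). Immediate-early genes, a list of fast-induced transcripts, had their highest scores in GDF15 1 and GDF15 2, at 1.15 and 1.25 on the log2 scale above the Vehicle mean, against -0.33 to 0.95 in the other 13 libraries. Transcripts of the clock output factors Dbp, Tef, Hlf and Nfil3 were lowest in Vehicle 3, at -1.32, while the other Vehicle libraries were at 0.11 to 0.72. The columns name the group and not the animal, and p-values set group differences against the variation between these libraries.

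With GDF15, 3 of the 57 P450 genes rose against Vehicle, where 2.02% of all tested genes rose, and none fell, where 0.88% of all tested genes fell. These were Cyp39a1, Cyp2c68 and Cyp3a59, which encode an oxysterol hydroxylase of bile acid synthesis and enzymes of the Cyp2c and Cyp3a subfamilies. They rose by 0.57, 0.45 and 0.52 on the log2 scale. A gene was said to rise or fall at a Benjamini-Hochberg adjusted p below 0.05 in edgeR's quasi-likelihood test, with the adjustment over all 12274 genes tested, and every adjusted p of a gene below is from this test unless another is named. The share of members that passed in either direction, 5.26%, stands beside 2.9% of all tested genes (356). At a mean of 100 CPM or more, 1 of 25 members (4%) and 7.49% of tested genes passed. From 10 to 100 CPM these were 2 of 18 members (11.1%) and 2.75% of genes, and below 10 CPM none of 14 members and 1.46%. All 57 members passed the filter on low counts.

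Cyp39a1 (chr17:43667372-43751431, mm10) had 27.2, 23.9, 19.9, 25.2 and 24.3 CPM in Vehicle 1 to 5. In GDF15 1 to 5 it had 39.7, 43.4, 29.3, 32.2 and 35.2 CPM, and in PairFed 1 to 5 it had 26.7, 29.2, 21.9, 22.9 and 24.4 CPM. Every GDF15 library was above every Vehicle and PairFed library, although GDF15 3 exceeded the highest PairFed library only narrowly. The means were 24.1 ± 2.69 in Vehicle, 36.0 ± 5.66 with GDF15 and 25.1 ± 2.95 with pair-feeding (SD, n = 5). The log2 fold change of Cyp39a1 against Vehicle was 0.57 ± 0.11 (SE; adjusted p = 0.00766). Its enzyme hydroxylates side-chain oxidised sterols on the way to bile acids. No stretch of 31 bases of its transcripts was found in transcripts of another gene.

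Cyp2c68 (chr19:39688836-39741101) belongs to the Cyp2c subfamily, whose enzymes oxidise drugs and arachidonic acid. It had 118, 158, 129, 147 and 128 CPM in the Vehicle libraries, 228, 199.8, 169, 169.7 and 163 in the GDF15 libraries and 185, 167, 133, 151 and 134 in the PairFed libraries. GDF15 did not overlap with Vehicle, and GDF15 1 and GDF15 2 were its highest libraries, while PairFed overlapped with both other groups. The means were 136 ± 16.3, 186 ± 27.6 and 154 ± 22.1 CPM, and the log2 fold change with GDF15 was 0.45 ± 0.11 (adjusted p = 0.0368). Of the 31-base stretches of its transcripts 62% also occur in other genes, 53.6% in Cyp2c40, which is not in the count table, so its counts may hold reads of its neighbours.

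Cyp3a59 (chr5:146079208-146114978) had 17.5, 20.2, 13.3, 18.4 and 16.8 CPM in Vehicle, 27.6, 26.8, 22.8, 18.5 and 28.4 with GDF15 and 21.4, 21.7, 21.0, 21.6 and 24.3 in PairFed. GDF15 4 lay within the Vehicle range and the other 4 GDF15 libraries above it, and all PairFed libraries lay above all Vehicle libraries in a narrow band. The log2 fold change was 0.52 ± 0.12 with GDF15 (adjusted p = 0.021) and 0.35 ± 0.11 with pair-feeding (0.145). It shared 48.9% of its 31-base stretches with other genes, most of them with Cyp3a25, a drug-metabolising gene of the same cluster. Cyp3a25 averaged 337 ± 45.7 CPM in Vehicle and 431 ± 69.8 with GDF15, a log2 difference of 0.36 ± 0.11 that did not pass (adjusted p = 0.0842).

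**Figure D1:**
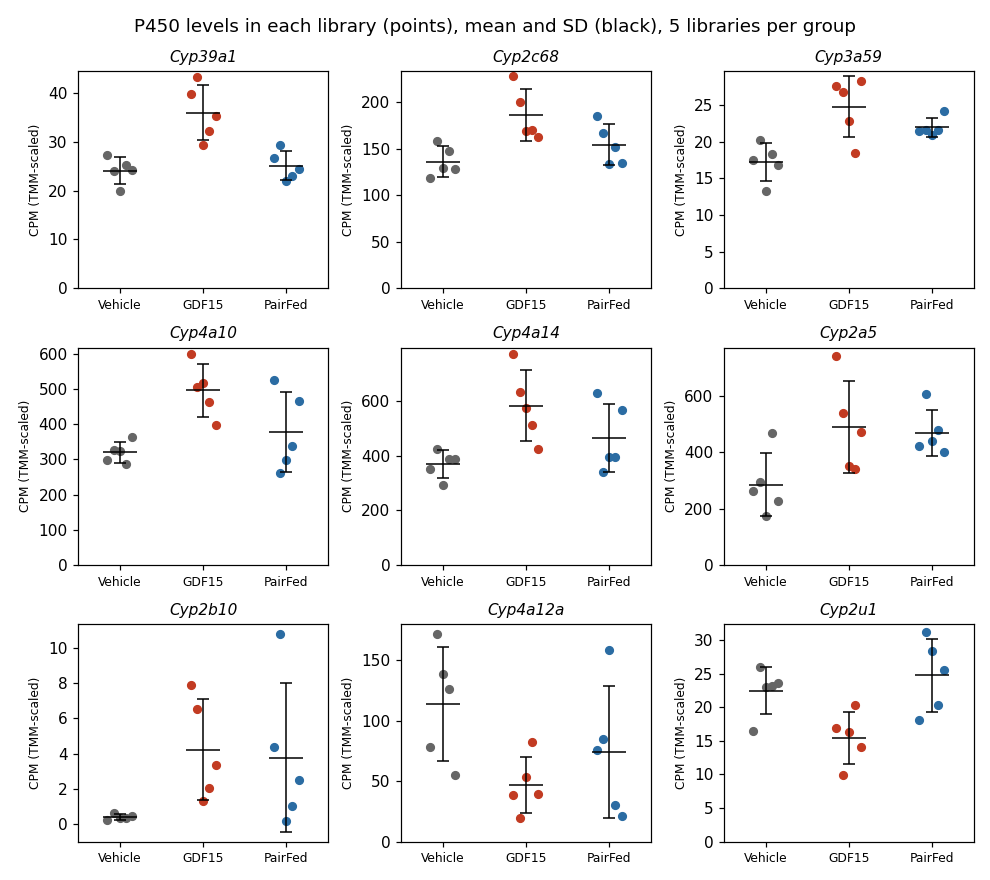
CPM (vertical axis) of 9 P450 genes in each library by group (horizontal axis), with points for libraries and black bars for the mean and SD of 5 libraries. Cyp39a1 shows 5 GDF15 points above all others, while Cyp2b10 has its 5 Vehicle points below 1 CPM and wide GDF15 and PairFed points.

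The 3 rises depended on the libraries in the fit. Without Vehicle 1, Vehicle 3, GDF15 1 or GDF15 2, left out singly, Cyp39a1 was the 1 member called. Cyp2c68 was also lost without Vehicle 5 and when a term for deeper libraries was added. Cyp3a59 was lost in a fit of only Vehicle and GDF15. With both GDF15 1 and GDF15 2 left out, a choice made after seeing the data, no member passed, and the log2 fold changes were 0.41 for Cyp39a1 (adjusted p = 0.133), 0.29 for Cyp2c68 (0.36) and 0.42 for Cyp3a59 (0.243). When the immediate-early score entered the fit as a covariate, no member passed either, and the value of Cyp39a1 was 0.33 (adjusted p = 0.592). Only 9 of all tested genes were called in that fit. The score itself averaged 0.76 with GDF15 and 0.45 in PairFed above the Vehicle mean, so this fit cannot separate the score from the group. The DESeq2 Wald test called 11 members, all higher, which added Cyp1a2, Cyp2a12, Cyp2b10, Cyp2d22, Cyp3a25, Cyp4a10, Cyp4a14 and Cyp4f15.

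Below the threshold, most members were higher with GDF15. The log2 fold change was above 0 in 46 of 57 members (80.7%), against 48.9% of all tested genes, and the median was 0.21 against -0.0046 over all tested genes. At an unadjusted p below 0.05, 19 members were higher (9.12% of all tested genes) and 5 lower (7.54%), together 42.1% of members against 16.7% of all tested genes. Abundant genes of all kinds were more often above 0 and more often at an unadjusted p below 0.05, so both shares are given by level. At 100 CPM or more, 52% of members and 29.3% of tested genes were below that p. From 10 to 100 CPM the shares below it were 22.2% and 16.2%, and below 10 CPM 50% and 12.8%. Among genes at 100 CPM or more, 24 of 25 members (96%) and 1141 of 1509 tested genes (75.6%) were above 0. From 10 to 100 CPM these were 15 of 18 members (83.3%) and 53.1% of genes, and below 10 CPM they were 7 of 14 members (50%) and 32.3% of genes. The median of members within a library stood at 0.41 in GDF15 1 and 0.26 in GDF15 2 above the Vehicle mean, and at 0.13 to 0.14 in the other 3 GDF15 libraries, where Vehicle ran from -0.09 to 0.11. PairFed 1 to 5 stood at 0.21, 0.20, 0.05, 0.03 and 0.14, so PairFed 1 and PairFed 2 were above GDF15 3, GDF15 4 and GDF15 5. GDF15 1 and GDF15 2, the leading libraries, were also those with the highest immediate-early scores. GDF15 1 also had the lowest total count and the highest sum of hepatocyte markers, 127900 CPM. It had the lowest sums of Kupffer cell and macrophage (341.8 CPM), endothelial (76.9), stellate cell (239.8) and bile duct markers (145.7). Its lymphocyte marker sum, 5.24 CPM, was not the lowest. The part of these differences in the P450 values was not tested.

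The groups did not overlap for 7 members (12.3%, against 3.99% of all tested genes). Cyp39a1, Cyp2c68, Cyp2a12, Cyp2b10, Cyp4a10 and Cyp4a14 were higher in all GDF15 libraries and Cyp4f18 was lower in all of them. The Cyp4a14 groups were apart by only 425.5 against 425.3 CPM. The members together made up 1.06 ± 0.0764% of all counts in Vehicle, 1.18 ± 0.106% with GDF15 and 1.09 ± 0.0798% in PairFed (SD, n = 5). Markers of hepatocytes summed to 87930 to 108000 CPM in Vehicle, 100500 to 127900 with GDF15 and 94910 to 117400 in PairFed. Of the 9 tested 2, Cps1 and Hpd, rose with GDF15 (2.02% of all tested genes), by 0.76 and 0.73 on the log2 scale. The other markers ran from -0.04 for Apob to 0.34 for Ahsg, and the list median was 0.25. Lymphocyte markers summed to 8.03 to 24.6 CPM in Vehicle and 4.41 to 7.69 with GDF15, and 2 of 6, Cd3g and Cd8a, fell (0.88% of all tested genes). Stellate cell markers summed to 425 to 749 CPM in Vehicle and 240 to 582 with GDF15, with none of 10 called. Kupffer cell and macrophage markers summed to 527.4 to 728.1 CPM in Vehicle, 341.8 to 681.1 with GDF15 and 425.5 to 563.2 in PairFed. Endothelial markers summed to 107.7 to 178.4 CPM in Vehicle, 76.9 to 217.7 with GDF15 and 134.2 to 231.4 in PairFed. None of either list was called. Bile duct markers summed to 217 to 498 CPM in Vehicle, 146 to 334 with GDF15 and 171.5 to 292 in PairFed. Of the 6 tested 5 were below 0 with GDF15, 3 of them at an unadjusted p below 0.05 (7.54% of all tested genes), with none called. In PairFed against Vehicle all 6 were below 0, and 1, Sox9, fell by 1.31 ± 0.24 on the log2 scale (adjusted p = 0.0336). Of all tested genes 0.139% fell in that comparison. The part of these shifts in the P450 values was not tested, and in bulk liver more hepatocytes and more RNA per hepatocyte cannot be told apart.

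**Figure D2:**
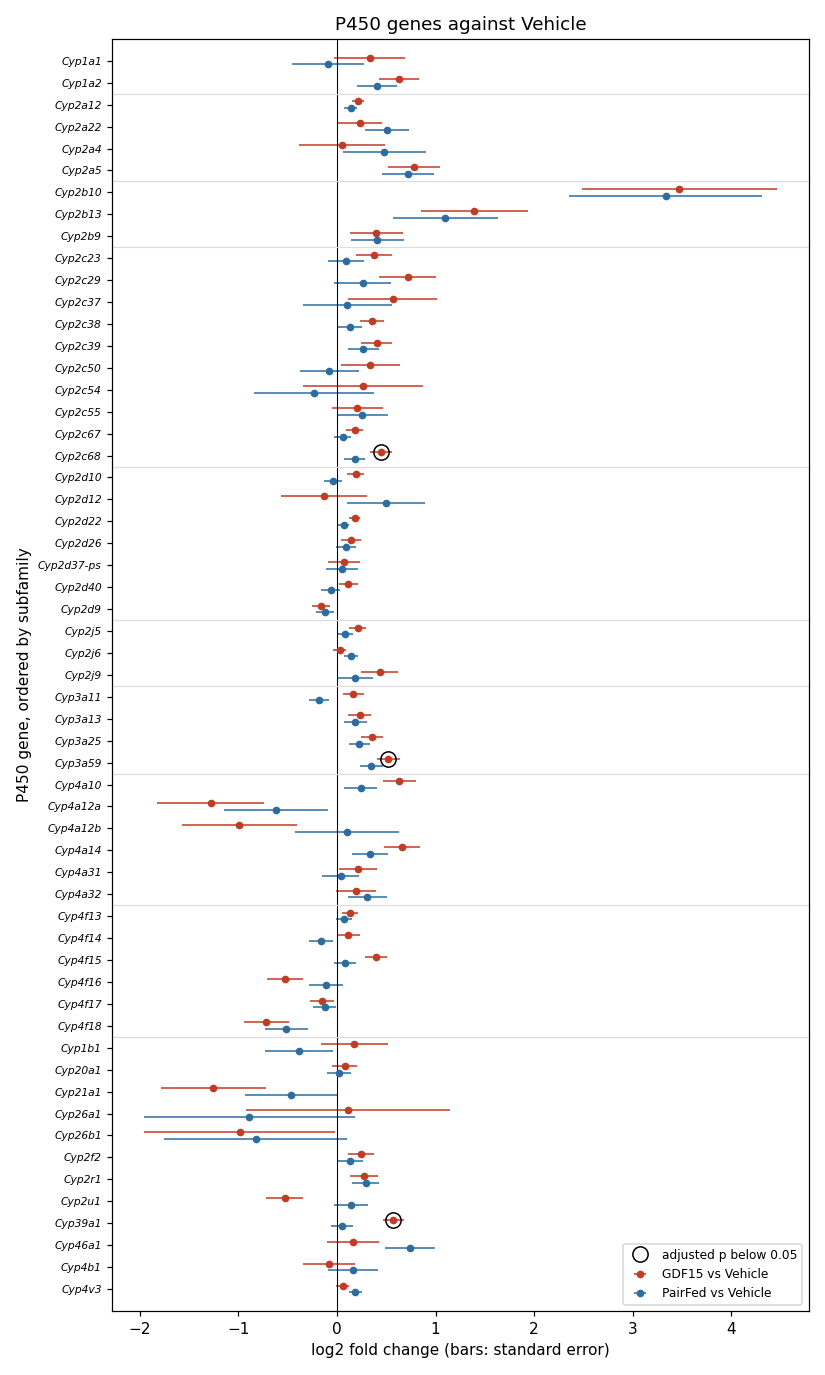
Log2 fold change (horizontal axis) of each P450 gene (vertical axis, by subfamily) for GDF15 and for PairFed against Vehicle, with bars for the standard error and circles for adjusted p below 0.05. The 3 circled points are Cyp2c68, Cyp3a59 and Cyp39a1 with GDF15, and all 10 Cyp2c points of GDF15 lie above 0.

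Families 1 to 3 held 37 members, of which 2 rose with GDF15 and 34 were above 0, with a median of 0.24. They were grouped by family number and hold many enzymes of foreign compound metabolism, but also others, such as the product of the fatty acid hydroxylase gene Cyp2u1. Of all tested genes 2.02% rose and 48.9% were above 0, and of those at 100 CPM or more 75.6% were above 0. All 10 Cyp2c genes were above 0, from 0.18 for Cyp2c67 to 0.72 for Cyp2c29, with a median of 0.37 and 1 called, Cyp2c68. The abundant epoxygenase gene Cyp2c29 had 236, 513, 256, 370.4 and 305 CPM in Vehicle, 763, 603, 464, 563 and 371 with GDF15 and 606, 471, 230.3, 280.1 and 426 in PairFed. Vehicle 2 alone was above GDF15 3 and GDF15 5, so the groups overlapped, and the log2 fold change of 0.72 ± 0.29 did not pass (adjusted p = 0.233). Cyp2c37, Cyp2c50 and Cyp2c54 varied together within Vehicle, with Vehicle 2 and Vehicle 4 high and Vehicle 1, 3 and 5 low for each. Cyp2c54, for example, had 16.8, 72.7, 15.6, 53.7 and 19.2 CPM in Vehicle and 50.7, 40.1, 36.1, 3.45 and 22.9 in PairFed. Other genes hold 42.3% to 47.9% of the 31-base stretches of these 3 genes, whose closest copies are Cyp2c50 and Cyp2c37, and the part of shared reads was not tested.

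Of the 3 Cyp2b genes, Cyp2b10 is the classical target of CAR, and all 3 were above 0 with GDF15 (48.9% of all tested genes). Cyp2b10 had 0.198, 0.603, 0.312, 0.293 and 0.428 CPM in Vehicle, which were 2, 6, 3, 4 and 4 counts. With GDF15 it had 7.92, 6.54, 1.27, 2.06 and 3.36 CPM and in PairFed 4.39, 10.8, 0.161, 0.998 and 2.51 CPM. All GDF15 libraries were above all Vehicle libraries, and PairFed reached from below the lowest Vehicle library to the highest value of all. The log2 fold changes were 3.47 ± 0.99 with GDF15 (adjusted p = 0.0825) and 3.34 ± 0.98 with pair-feeding (0.133), the largest positive estimates of any tested gene in both comparisons, and neither passed. Cyp2b13, a female-biased gene, ranged over 2.41 to 4.06 CPM in Vehicle, 3.53 to 19.4 with GDF15 and 1.61 to 11.1 in PairFed. Its log2 fold change with GDF15 was 1.39 ± 0.54 (adjusted p = 0.205), with GDF15 1 the highest library. The third gene, Cyp2b9, averaged 153 ± 21.6, 202 ± 74.4 and 203 ± 63.2 CPM in Vehicle, GDF15 and PairFed. Other targets of CAR and PXR outside the family, 9 genes, had none called and a median of 0.13.

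Cyp2a5, which oxidises coumarin and nicotine and follows a daily rhythm, had 262, 294, 173, 468 and 228 CPM in Vehicle, 743, 540.5, 353, 340.4 and 474 with GDF15 and 421, 607, 439, 479 and 401 in PairFed. Vehicle 4 overlapped with both other groups and the other 4 Vehicle libraries lay below them all. Its log2 fold changes against Vehicle were 0.78 ± 0.27 with GDF15 (adjusted p = 0.145) and 0.72 ± 0.27 with pair-feeding (0.196), and neither passed. The scores of the clock output factors averaged 0.76 with GDF15 and 0.83 in PairFed above Vehicle, with none of the 4 factors called. Vehicle 3, at -1.32, lowered the Vehicle mean. The other Vehicle libraries, at 0.11 to 0.72, overlapped with GDF15 at 0.32 to 1.13 and with PairFed at 0.49 to 1.19. Vehicle 3 was also lowest in Cyp2a5. The part of these factors in the Cyp2a5 values was not tested. Its near copy Cyp2a4, a testosterone hydroxylase gene, shares 58.1% of its 31-base stretches, mostly with Cyp2a5, and averaged 17.4 ± 7.43, 18.1 ± 8.96 and 24.1 ± 13.2 CPM. Cyp2a12 had the tightest shift of this subfamily, from 422 to 510.2 CPM in Vehicle to 515 to 590.3 with GDF15 (log2 0.21 ± 0.06; adjusted p = 0.0776).

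Cyp1a2, an AHR target that liver expresses constitutively, had 165, 305, 159.9, 215 and 191 CPM in Vehicle, 481, 321, 249, 244 and 307 with GDF15 and 295, 312, 266, 234 and 264 in PairFed. Vehicle 2 was above 2 GDF15 libraries, and the log2 fold change of 0.63 ± 0.20 did not pass (adjusted p = 0.116). Cyp1a1, the other AHR target beside it, was low throughout, at 1.09 ± 0.382, 1.42 ± 0.639 and 1.05 ± 0.431 CPM. Of the 4 tested AHR targets outside the family none was called. Cyp3a11, the main PXR-responsive gene and the most abundant member, averaged 1961 ± 162 CPM in Vehicle, 2201 ± 315 with GDF15 and 1728 ± 234 in PairFed. All 4 Cyp3a genes and 5 of the 7 Cyp2d genes were above 0 with GDF15, and no Cyp2d gene was called. The share above 0 was 48.9% of all tested genes and 75.6% of those at 100 CPM or more. The male-biased steroid hydroxylase gene Cyp2d9 averaged 457 ± 53.5, 408 ± 31.1 and 419.7 ± 51.9 CPM. Cyp2u1, a fatty acid hydroxylase gene of family 2, had a lower mean with GDF15 and was not called, with 16.5, 26.0, 23.0, 23.1 and 23.5 CPM in Vehicle, 16.9, 9.86, 16.3, 20.3 and 14.1 with GDF15 and 18.2, 31.2, 28.4, 20.3 and 25.5 in PairFed. Its GDF15 libraries overlapped with Vehicle 1 and with PairFed 1, and its log2 difference from Vehicle was -0.53 ± 0.18 (adjusted p = 0.14).

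Family 4, the fatty acid and eicosanoid hydroxylases, held 14 members, of which none was called, with 8 above 0 (48.9% of all tested genes) and a median of 0.09. Cyp4a10 and Cyp4a14, fatty acid hydroxylase genes induced by PPARα, lie next to each other at chr4:115518287-115533649 and chr4:115486200-115496158. Cyp4a10 had 298, 328, 324, 287 and 362 CPM in Vehicle, 601, 506, 516, 462 and 397 with GDF15 and 524, 261, 298, 338 and 467 in PairFed. Cyp4a14 had 349, 425, 292, 389 and 388 CPM in Vehicle, 771, 631, 575, 512 and 426 with GDF15 and 629, 339.7, 393, 395 and 566 in PairFed. Both genes were above the Vehicle range in all GDF15 libraries, and in PairFed 1 and PairFed 5 among the pair-fed livers. For Cyp4a14, GDF15 5 at 425.5 CPM was only just above Vehicle 2 at 425.3 CPM. The log2 fold changes with GDF15 were 0.63 ± 0.17 (adjusted p = 0.0582) and 0.66 ± 0.18 (adjusted p = 0.0717), which missed the threshold in edgeR and passed it in DESeq2. Cyp4a14 shares 2.07% of its 31-base stretches with other genes and Cyp4a10 shares 45.5%, mainly with Cyp4a32. Of 17 PPARα targets outside the family none was called, and their median was 0.05 with GDF15 and 0.15 with pair-feeding. Between GDF15 and PairFed their median was -0.11, with 13 of 17 below 0. At an unadjusted p below 0.05, 5 were lower (6.31% of all tested genes) and 1 higher (7.01%). Cyp4a10 and Cyp4a14 were at 0.39 ± 0.17 and 0.33 ± 0.18 there (adjusted p = 0.32 and 0.463).

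The male-biased Cyp4a12a, which makes a vasoactive arachidonic acid product, lay in the same gene cluster and had 78.5, 172, 139, 126 and 55.0 CPM in Vehicle. With GDF15 it had 38.8, 19.8, 53.3, 82.6 and 39.3 CPM and in PairFed 76.0, 85.3, 159, 30.5 and 21.4 CPM. PairFed 4 and PairFed 5 were at the level of the low GDF15 libraries while PairFed 3 was near the top of Vehicle. The log2 differences from Vehicle were -1.28 ± 0.54 with GDF15 (adjusted p = 0.253) and -0.62 ± 0.53 with pair-feeding (0.585). The near copy Cyp4a12b, with 62.9% shared stretches, averaged 4.22 ± 1.27, 2.05 ± 1.14 and 4.46 ± 4.47 CPM. Of the 3 tested sex-biased genes outside the family all were below 0 with GDF15, at -0.48 to -0.46, and none was called. Among the 6 Cyp4f genes, which inactivate leukotrienes and related lipids, Cyp4f15 was at 0.40 ± 0.11 (adjusted p = 0.0643) and Cyp4f18, a gene described in neutrophils, at -0.72 ± 0.23 (0.0979). Cyp4f18 had 3.36, 3.02, 2.81, 2.71 and 3.10 CPM in Vehicle and 1.28, 2.18, 2.05, 2.16 and 1.37 with GDF15, without overlap. Cyp4f16 was also lower, at -0.53 ± 0.18 (0.139).

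The 6 members of families 11 and above convert sterols, steroids and retinoic acid, or have no assigned substrate (Cyp20a1). Only Cyp39a1 among them was called (2.02% of all tested genes rose), and their median with GDF15 was 0.10. Cyp46a1, the cholesterol hydroxylase best known from brain, had 11.4, 13.2, 9.88, 26.1 and 17.0 CPM in Vehicle, 17.6 ± 1.88 with GDF15 (mean and SD) and 20.1, 33.8, 29.2, 32.1 and 15.9 in PairFed. PairFed 2, 3 and 4 exceeded every Vehicle and GDF15 library, and the log2 difference of PairFed from Vehicle was 0.74 ± 0.26 (adjusted p = 0.169). The retinoic acid hydroxylase gene Cyp26a1 had 0.594, 42.4, 4.89, 2.86 and 22.8 CPM in Vehicle, 59.8, 5.73, 1.66, 3.04 and 10.9 with GDF15 and 8.88, 10.6, 3.05, 2.99 and 13.7 in PairFed. It varied more within each group than between them, with a log2 difference of 0.11 ± 1.04 for GDF15 (adjusted p = 0.971). Cyp26b1, the second retinoic acid hydroxylase gene, also fell into high and low libraries, from 0.220 to 8.55 CPM in Vehicle alone. Cyp21a1, an adrenal steroid hydroxylase gene, was near the limit of detection, with means of 1.58, 0.626 and 1.10 CPM.

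**Figure D3:**
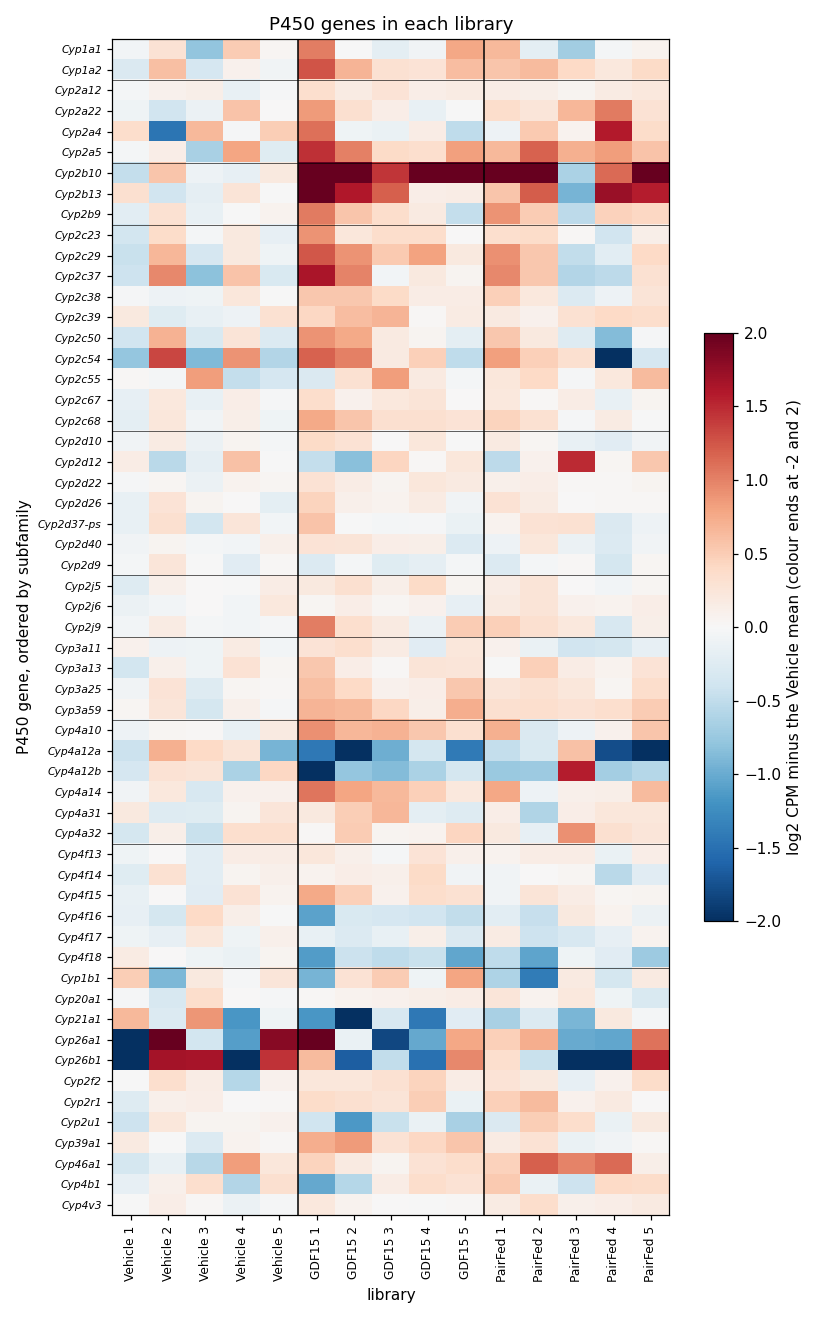
Log2 CPM of each P450 gene (vertical axis) in each library (horizontal axis) minus the Vehicle mean of that gene, with red for higher and blue for lower and the colour ending at -2 and 2. GDF15 1 carries the most red, Cyp2b10 is red in all GDF15 libraries, and Cyp26a1 and Cyp26b1 mix red and blue within every group.

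With pair-feeding, no P450 gene rose or fell against Vehicle. This stands beside 35 of 12274 genes called in that comparison (0.285%). At an unadjusted p below 0.05, 10 members differed (17.5%, against 16.9% of all tested genes), 9 of them higher (8.66% of all genes) and 1 lower (8.25%). DESeq2 called 1 member, Cyp2b10, and limma-voom none. The log2 fold change was above 0 in 41 of 57 members (71.9%, against 49.9% of all tested genes), with a median of 0.11 against -0.0005 over all tested genes. At 100 CPM or more, 20 of 25 members (80%) and 66.5% of tested genes were above 0. From 10 to 100 CPM these shares were 72.2% and 53.3%, and below 10 CPM 57.1% and 38.2%. Cyp3a59 was the 1 member without overlap between PairFed and Vehicle (1.75%, against 3.92% of all tested genes). Among members whose log2 CPM averaged 1 or more, the largest estimates were those of Cyp2b10, Cyp2b13, Cyp46a1, Cyp2a5, Cyp2a22 and Cyp2a4, from 3.34 to 0.48. All 4 Cyp2a genes were above 0 with a median of 0.49, while the Cyp2c median was 0.12 and the Cyp4f median -0.12. At the same minimum, the lowest estimates were those of Cyp26a1, Cyp26b1, Cyp4a12a, Cyp4f18, Cyp1b1 and Cyp2c54, from -0.89 to -0.24. Those of Cyp26a1, Cyp26b1 and Cyp2c54 turned positive in 1 or more of these alternatives: when Vehicle 2 or PairFed 4 was left out, under limma-voom or with a term for the deeper libraries, as given with the alternatives at the end.

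Between GDF15 and PairFed livers, Cyp39a1 was the 1 member that differed, and it was higher with GDF15. Its log2 fold change was 0.52 ± 0.11 (adjusted p = 0.0344), and it was 0.05 ± 0.11 for PairFed against Vehicle (0.842). This count of 1 (1.75%) stands beside 96 of 12274 genes called in either direction (0.782%) and 0.562% called higher. At an unadjusted p below 0.05, 7 members were higher (7.01% of all genes) and 3 lower (6.31%), together 17.5% against 13.3% of all tested genes. Above 0 were 37 members (64.9%, against 50.2%). At 100 CPM or more, 22 of 25 members (88%) and 66.9% of tested genes were above 0. From 10 to 100 CPM these shares were 50% and 49.5%, and below 10 CPM 42.9% and 45.2%. Cyp39a1 was also the 1 member without overlap (1.75%, against 2.86%). The call was lost without any 1 of Vehicle 5, GDF15 1, GDF15 2, PairFed 3, PairFed 4 or PairFed 5. It was also lost when only both groups compared entered the fit, with a term for deeper libraries and with the immediate-early covariate, where the value was 0.42 (adjusted p = 0.0704). Without GDF15 1 and GDF15 2 together it was 0.37 (adjusted p = 0.293). Of the 9 hepatocyte markers tested, 4 were higher with GDF15 than in PairFed at an unadjusted p below 0.05, and 1, the urea cycle gene Cps1, was called (0.72 ± 0.09, adjusted p = 0.000652). Of all tested genes 7.01% were higher at that p and 0.562% were called higher. The part of these markers in the Cyp39a1 difference was not tested.

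Other members with large estimates between GDF15 and PairFed did not pass. Cyp2u1 was lower with GDF15, at -0.68 ± 0.18 (adjusted p = 0.109), and DESeq2 called it. Cyp3a11 was higher with GDF15, at 0.35 ± 0.11 (0.145), with 2373, 2469.9, 2196, 1667 and 2299 CPM in the GDF15 libraries and 2081, 1789.5, 1494, 1536 and 1738 CPM in the PairFed libraries. GDF15 4 lay among the PairFed values and the other 4 GDF15 libraries above them. Cyp26a1, Cyp1b1, Cyp2c54, Cyp2c37 and Cyp2c29 had estimates of 1.00 to 0.46, and Cyp4a12b, Cyp4a12a, Cyp46a1 and Cyp2a4 of -1.09 to -0.43, each with an adjusted p of at least 0.352. The Cyp26a1 estimate turned to -0.57 without GDF15 1. The Cyp2c genes had a median of 0.28 with 9 of 10 above 0, and the Cyp2a genes a median of -0.11. Of all tested genes 50.2% were above 0, and of those at 100 CPM or more 66.9%. Both comparisons with GDF15 use the same 5 GDF15 libraries, and both comparisons with Vehicle the same 5 Vehicle libraries, so their estimates are given side by side and not set against each other.

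The members covered a wide range of levels, which are compared between genes per kilobase of transcript. Cyp3a11, at 838 CPM per kilobase over all libraries, was followed by Cyp2d26 at 568 and the periportal gene Cyp2f2 at 435, and the range ended at 0.439 for Cyp1a1. Cyp3a11 alone held 17.5% of the counts of all members and the top 10 held 64.2%. The median member varied more between libraries than the median gene. Its biological coefficient of variation was 17.9%, against 11% for all tested genes. Cyp2d22 at 8.14% and Cyp2a12 at 8.76% were the steadiest, and Cyp26a1 at 111%, Cyp26b1 at 104% and Cyp2b10 at 81.5% the least steady.

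**Figure D4:**
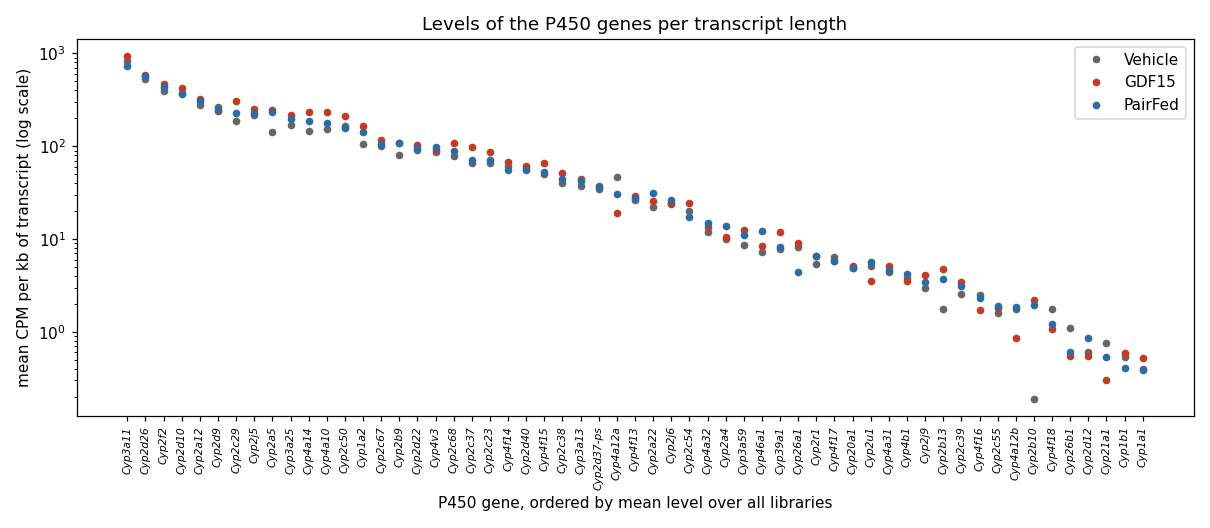
Mean CPM per kilobase of transcript (vertical axis, log scale) of the P450 genes, ordered by level (horizontal axis), with 1 point per group of 5 libraries. Levels run from 838 for Cyp3a11 to 0.439 for Cyp1a1 over all libraries, and the widest gap between points of 1 gene is that of Cyp2b10, whose Vehicle point lies lowest.

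Most members lie in tandem clusters, and neighbours are close copies. With gaps of up to 1 Mb, 44 of 57 members fell into 8 clusters and 13 stood alone (GRCm38.p6, the assembly of mm10). The cluster at chr7:25897658-27133660 holds the 3 Cyp2b, the 4 Cyp2a genes and Cyp2f2. All 8 of these were above 0 with GDF15 and with pair-feeding, with medians of 0.32 and 0.49. Of all tested genes 48.9% and 49.9% were above 0 in these comparisons, and of those at 100 CPM or more 75.6% and 66.5%. The cluster at chr19:39006940-40113955 holds 9 Cyp2c genes, of which 9 were above 0 with GDF15 and 7 with pair-feeding. In the cluster of 7 at chr4:115299046-115647721 the estimates with GDF15 ran from -1.28 for Cyp4a12a to 0.66 for Cyp4a14. Neighbours share sequence as well as position: 27 members had at least 20% of their 31-base stretches in another gene and only 8 had none, with a median of 16.3% and up to 67.6% in Cyp2c67. Directions within a cluster are not independent observations.

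The promoter windows of the members held the letters of the TATA box more often than all RefSeq windows. RefSeq promoter windows (GRCm38.p6; 250 bases before to 50 after the start) were matched for 43 members with 48 windows. The letters TATAAA, on either strand, were in 20 of 48 windows (41.7%) and in 13.6% of all 32851 windows. Starting 20 to 40 bases before the start site, a band chosen with the matches known, they were in 12 of 48 (25%) and in 2.5% of all windows. Members of a cluster are copies, so their windows are not independent. Examples of this placement from 4 subfamilies are shown as the 60 bases before the start, 5′ to 3′ on the strand of the gene, with TATAAA or its reverse complement in capitals.
Cyp1a2, chr9:57683656-57683715, minus strand: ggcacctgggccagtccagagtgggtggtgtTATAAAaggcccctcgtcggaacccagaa
Cyp2a5, chr7:26835279-26835338, plus strand: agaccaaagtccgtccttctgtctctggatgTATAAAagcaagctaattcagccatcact
Cyp2c38, chr19:39463076-39463135, minus strand: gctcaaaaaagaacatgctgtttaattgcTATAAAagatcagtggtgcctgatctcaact
Cyp2d9, chr15:82452317-82452376, plus strand: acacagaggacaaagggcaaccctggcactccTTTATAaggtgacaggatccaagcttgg
None of the other motifs had a higher share than in all windows. GCGTG, the core bound by AHR, was in 11 of 48 windows (22.9%, against 32.4% of all) and CACGTG, the E-box, in 2 (4.17%, against 7.15%). The full palindrome of the glucocorticoid receptor, the clock output factor motif, the direct repeats DR1 and DR4 and the HNF1 motif, searched as exact letters on both strands, were in none of the 48 windows. They were in 3, 308, 13, 4 and 3 of all 32851 windows, so rarely that their absence from 48 windows cannot show a lower share.

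Of the genes that serve the P450 enzymes, the electron donor Por rose with GDF15, as did the nuclear receptor gene Nr1i2, which encodes PXR, and the transcription factor gene Cebpb. Por had 124, 135, 88.7, 211 and 153 CPM in Vehicle, 446, 385, 217, 199 and 372 with GDF15 and 215, 331, 282, 266 and 226 in PairFed. Every PairFed library was above every Vehicle library, while GDF15 4 lay inside the Vehicle range, just below Vehicle 4. The log2 fold change of Por was 1.18 ± 0.26 with GDF15 (adjusted p = 0.0295) and 0.89 ± 0.26 with pair-feeding (0.128). Nr1i2 averaged 82.6 ± 11.6, 120.3 ± 18.6 and 96.2 ± 7.76 CPM and its log2 fold change with GDF15 was 0.54 ± 0.11 (adjusted p = 0.0121). Cebpb, which GDF15 1 led with 477 CPM, was at 1.26 ± 0.23 (0.0125). Por was 1 of 8 electron donors and partners called, Nr1i2 was 1 of 10 nuclear receptors and Cebpb 1 of 9 hepatocyte transcription factors, with list medians of 0.16, 0.19 and 0.05. Of all tested genes 2.02% rose. GDF15 1 and GDF15 2, the libraries with the highest immediate-early scores, were also highest in Por, Nr1i2 and Cebpb, and the part of that score in these rises was not tested.

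The rest of the machinery did not pass. None of 9 genes of haem synthesis and breakdown was called. Their first enzyme gene, Alas1, had 278, 255, 147, 389.5 and 358 CPM in Vehicle, 835, 616, 352, 338 and 578 with GDF15 and 413, 978, 704, 645 and 401 in PairFed. Every PairFed library was above every Vehicle library for Alas1, and 2 GDF15 libraries lay within the Vehicle range. Its log2 fold change was 0.93 ± 0.34 with GDF15 (adjusted p = 0.173) and 1.14 ± 0.34 with pair-feeding (0.136). The CAR gene Nr1i3 was at 0.27 ± 0.20 with GDF15 (0.534) and Ppara at 0.22 ± 0.26 (0.742). None of 9 pericentral genes outside the family was called, and their scores averaged 0.18 with GDF15 and 0.15 in PairFed above Vehicle. At an unadjusted p below 0.05, 4 of the 9 were higher with GDF15 (9.12% of all tested genes) and 2 in PairFed (8.66%). None of the 4 clock output factors and none of 18 tested immediate-early genes was called. Of these 18, 12 were higher with GDF15 at an unadjusted p below 0.05 (9.12% of all tested genes) and 1 lower (7.54%). Of 12 acute-phase genes 2, Orm2 and Apcs, fell with GDF15 (0.88% of all tested genes), by 0.60 and 0.40 on the log2 scale. At an unadjusted p below 0.05, 4 of the 12 were lower with GDF15 (7.54% of all tested genes) and none was higher. In PairFed against Vehicle and in GDF15 against PairFed no gene of these lists was called. At an unadjusted p below 0.05 in PairFed against Vehicle, 4 of 8 electron donors and partners, 2 of 9 haem genes and 6 of 17 PPARalpha targets outside the family were higher (8.66% of all tested genes), and 1 of these PPARalpha targets was lower. In the same comparison 8 of 12 acute-phase genes were lower (8.25% of all tested genes) and none was higher, and 3 of the 12 did not overlap between the groups (3.92%). With GDF15 against Vehicle, 2 of the 8 electron donors and partners, 2 of the 9 haem genes and 2 of the 17 PPARalpha targets were higher at that p (9.12%). Of these PPARalpha targets 1 was lower.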

How the data were processed

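The authors deposited whole-number estimated counts per gene symbol, unscaled for depth. The submitters' processing notes name Salmon, DESeq2 and mm10 without versions or roles, and the transcript set is not given. Libraries were prepared from total RNA with a directional kit, per the labels' protocols. Columns carry group names only, so libraries are numbered by column order, as names.

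One edgeR 4.0.16 model (R 4.3.3) covered the 15 libraries, with filterByExpr (count of 10, total of 15; 99.9% of counts kept), TMM scaling and the robust quasi-likelihood test. Standard errors (SE) come from the F statistic. Log2 scores used a prior count of 2. DESeq2 1.42.0 and limma 3.58.1 (voom) were alternatives, and the fit was tested on simulated counts.

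The members and lists were chosen with earlier results of these data known. Named genes are those called, up to 6 with the largest estimates each way per comparison at a mean log2 CPM of at least 1, the 10 most abundant and known regulator targets. Cyp2a12, Cyp2d22, Cyp3a25, Cyp4f15, Cyp2c67, Cyp2c50 and Cyp20a1 were named after their values were seen. Of 57 members, 57 matched GENCODE transcripts, from which levels per kilobase and shared 31-base stretches were computed in place of protein identity. Precision is limited by 5 libraries a group.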

Additional observations from a re-analysis of the deposited data

Results flagged for a closer look

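Among 171 combinations of a P450 gene and a group of 5 libraries, 10 had a library set apart from the others by a gap of over 0.71 of the group's range, and chance alone sets apart about 1 in 20 such groups. GDF15 1 was highest for Cyp26a1 (59.8 CPM; others 1.66 to 10.9), Cyp2a4 (33.6; others 10.8 to 17.2) and Cyp2d37-ps (86.12; others 52.4 to 57.3). In PairFed, Cyp2a4 was highest in PairFed 4 (46.97 CPM; others 14.5 to 22.5), Cyp4a12b in PairFed 3 (12.45; others 2.35 to 2.67) and Cyp3a59 in PairFed 5 (24.27; others 21 to 21.7). Cyp4a31 was lowest in PairFed 2, at 7.23 CPM with the others at 12.1 to 13.05. In Vehicle, Cyp2c38 was highest in Vehicle 4 (135.2 CPM; others 107.6 to 115.5), Cyp2c55 in Vehicle 3 (5.51; others 2.12 to 3.07) and Cyp2j9 in Vehicle 2 (6.837; others 5.84 to 5.99).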

How the results depend on the processing

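The counts of members and of all genes called moved with the test and the samples in the fit, while the median member estimate stayed above 0 throughout. For GDF15 against Vehicle, DESeq2 called 11 members and 642 genes, a fit of only the groups compared 5 (without Cyp3a59) and 194, the immediate-early covariate 0 and 9, and the fit without GDF15 1 and GDF15 2 together, chosen after seeing the data, 0 and 42. For PairFed against Vehicle, DESeq2 called 1 member and 339 genes, and the term for deeper libraries and the immediate-early covariate called 0 genes each. The depth term marked Vehicle 4, PairFed 2 to 5 and no GDF15 library, and the immediate-early score averaged higher with GDF15 and in PairFed than in Vehicle. Both therefore overlap with the groups, and fits with them, in every comparison, cannot separate depth or score from group. For GDF15 against PairFed, DESeq2 called 2 members and 259 genes, the fit of only the groups compared 0 members, the term for deeper libraries 0 and 9, the immediate-early covariate 0 and 60, and the fit without GDF15 1 and GDF15 2 together 0 and 15. Leaving out 1 library at a time gave 1 to 5 members and 134 to 476 genes for GDF15 against Vehicle, 0 members and 0 to 135 genes for PairFed against Vehicle, and 0 to 2 members and 21 to 171 genes for GDF15 against PairFed.

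For PairFed against Vehicle, the estimate of Cyp26a1 turned to 0.1712 with limma-voom and 0.04098 with the term for deeper libraries, and ran from -1.199 to 0.05249 over single libraries left out. Cyp26b1 turned to 0.4499 with the term for deeper libraries, and Cyp2c54 ran from -0.4853 to 0.1835 over single libraries left out. For GDF15 against PairFed, Cyp26a1 turned to -0.05838 with the term for deeper libraries, -0.8424 with the immediate-early covariate and -0.6032 without GDF15 1 and GDF15 2, and ran from -0.5664 to 1.313 over single libraries left out. Cyp46a1 turned to 0.04016 with the term for deeper libraries, and Cyp2c37 to -0.1875 without GDF15 1 and GDF15 2. The cause was not tested. Of the other single estimates, 900 kept their direction and side of the threshold, 18 passed it and 27 dropped below it. Cyp39a1 against Vehicle passed in 23 of 25 alternatives, Cyp3a59 in 18 and Cyp2c68 in 17, and Cyp39a1 against PairFed in 15. No paired analysis was possible because nothing ties a PairFed column to a GDF15 column. Members below 10 CPM rest on few counts.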
